A study of Homo sapiens with 6 samples.

Results

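The genes described here carry cytokine signals from the cell surface to the nucleus: the receptor subunit IL6ST, the kinases JAK1 and JAK2, the transcription factors STAT3, STAT5A and STAT5B, and the inhibitors SOCS1, SOCS2 and SOCS3. These 9 of the 43317 gene names on the array were chosen by name, and every probe that the array files assign to them was taken, which gave 16 of 58201 probes. IL6ST had 7 probes, STAT3 had 2, and each other gene had 1. RNA came from BT474 cells, an established line of luminal breast cancer that carries the estrogen receptor and extra copies of HER2, grown in RPMI-1640 with fetal bovine serum. The Control cells (named MOCK in the labels) were transfected with empty pcDNA3.1, BT474-Var1 cells with pcDNA3.1 carrying variant1 of the long noncoding RNA NR2F1-AS1, and BT474-Var4 cells with pcDNA3.1 carrying variant4. Each group had 2 Cy3-labeled Agilent arrays, A and B, and all 6 arrays were on 1 slide. According to the study, the variants were in different pcDNA3.1 plasmids, all populations passed through antibiotic selection, and those given a variant dwindled to a small number of cells before colonies grew out. The transfected RNA, its plasmid and the survivors that founded each population therefore cannot be told apart. Nothing in the labels says that arrays A and B came from separate cultures, so the p-values measure the spread between these samples, and the number of arrays limits their precision.

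A cytokine of the IL-6 family binds its own receptor chain and brings IL6ST, also called gp130, into a complex. Janus kinases held by the receptor tails then phosphorylate the tails and the STAT proteins docked there, and the STATs enter the nucleus and act on transcription. SOCS genes are themselves induced by STATs, and their proteins block the kinases or send the receptors to degradation. In the mammary gland, STAT5A and STAT5B carry the signals of prolactin and growth hormone, while STAT3 is known for its role in involution.

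Before any comparison, the labels were checked. NR2F1-AS1 probe A_19_P00320140 was well above background on the BT474-Var1 arrays alone, and probe A_24_P51080 stood at 1.67 and 1.50 on the BT474-Var4 arrays and was not well above background on either BT474-Var1 array. These and all levels below are log2 signals relative to the 75th percentile of the same array. All 10 luminal epithelial markers were well above background on the 6 arrays, with a summed level of 11.07 to 11.10 in Control, 11.40 to 11.42 in BT474-Var1 and 11.03 to 11.04 in BT474-Var4 cells. None of the 4 basal markers was well above background on all arrays, and KRT5 on none, but KRT14 was so on the 4 arrays of the variant populations and KRT17 on both BT474-Var1 arrays. Their summed level was -2.77 to -2.70 in Control, -2.15 to -1.79 in BT474-Var1 and -2.49 to -2.09 in BT474-Var4 cells. Summed endothelial markers ranged from 0.84 to 0.94 in BT474-Var1, from 1.39 to 1.49 in Control and from 1.30 to 1.37 in BT474-Var4 cells, while KDR was well above background nowhere and VWF stood at 1.01 and 1.12 in Control and at 0.29 and 0.09 in BT474-Var1 cells. Summed fibroblast markers ranged from 2.46 to 2.51 in BT474-Var4, from 1.64 to 1.66 in Control and from 1.87 to 1.92 in BT474-Var1 cells, with COL1A2 and LUM well above background nowhere. Of these, COL1A1 stood at 1.17 and 1.12 in Control and 2.19 and 2.17 in BT474-Var4 cells, and DCN was well above background only on the BT474-Var4 arrays (-1.35 and -1.75). Summed immune markers ranged from 0.31 to 0.38 in Control, from 0.39 to 0.42 in BT474-Var1 and from 0.18 to 0.29 in BT474-Var4 cells. Among them, PTPRC and CD14 were well above background on all 6 arrays. In bulk RNA, fewer cells of a type and less RNA per cell cannot be told apart, and the part of these markers in the results was not tested. Control and BT474-Var4 arrays were in slide column 1 and BT474-Var1 arrays in column 2, so slide column and BT474-Var1 cannot be told apart. Control arrays were in slide rows 1 and 2, and those of both variant populations in rows 3 and 4. Slide row therefore cannot be told apart from the variants in either comparison against Control.

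In BT474-Var1 cells the receptor subunit IL6ST and the inhibitor SOCS2 were higher than in Control, SOCS1 was lower, and 1 of the STAT3 probes was slightly higher. Probes entered the test if some group had both of its arrays well above background, which 15 of the 16 member probes did. Of these 15, 9 passed an adjusted p under 0.05 (limma, Benjamini-Hochberg over all tested probes), 8 higher and 1 lower, and none changed by 2-fold or more. Over all 31858 tested probes, 34.4% passed, 14.1% higher and 20.3% lower, and 3.94% passed with a 2-fold change. The median log2 fold change was 0.27 for the member probes and -0.04 for all tested probes. As 6 of the 8 higher probes belong to IL6ST, the calls came from 4 genes. IL6ST had 7 of the 15 probes, so the member median leans on that gene. In BT474-Var4 cells only 3 member probes passed, those of JAK1 and STAT3 as higher and 1 IL6ST probe as lower. There the share over all probes was 24.2%, with 9.87% higher, 14.3% lower and 3.17% changed by 2-fold or more, and the medians were -0.14 and -0.08. The arrays of the groups compared did not overlap for 13 of 15 member probes in the first comparison (71.7% of all tested probes) and for 14 in the second (68.6%).

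**Figure D1:**
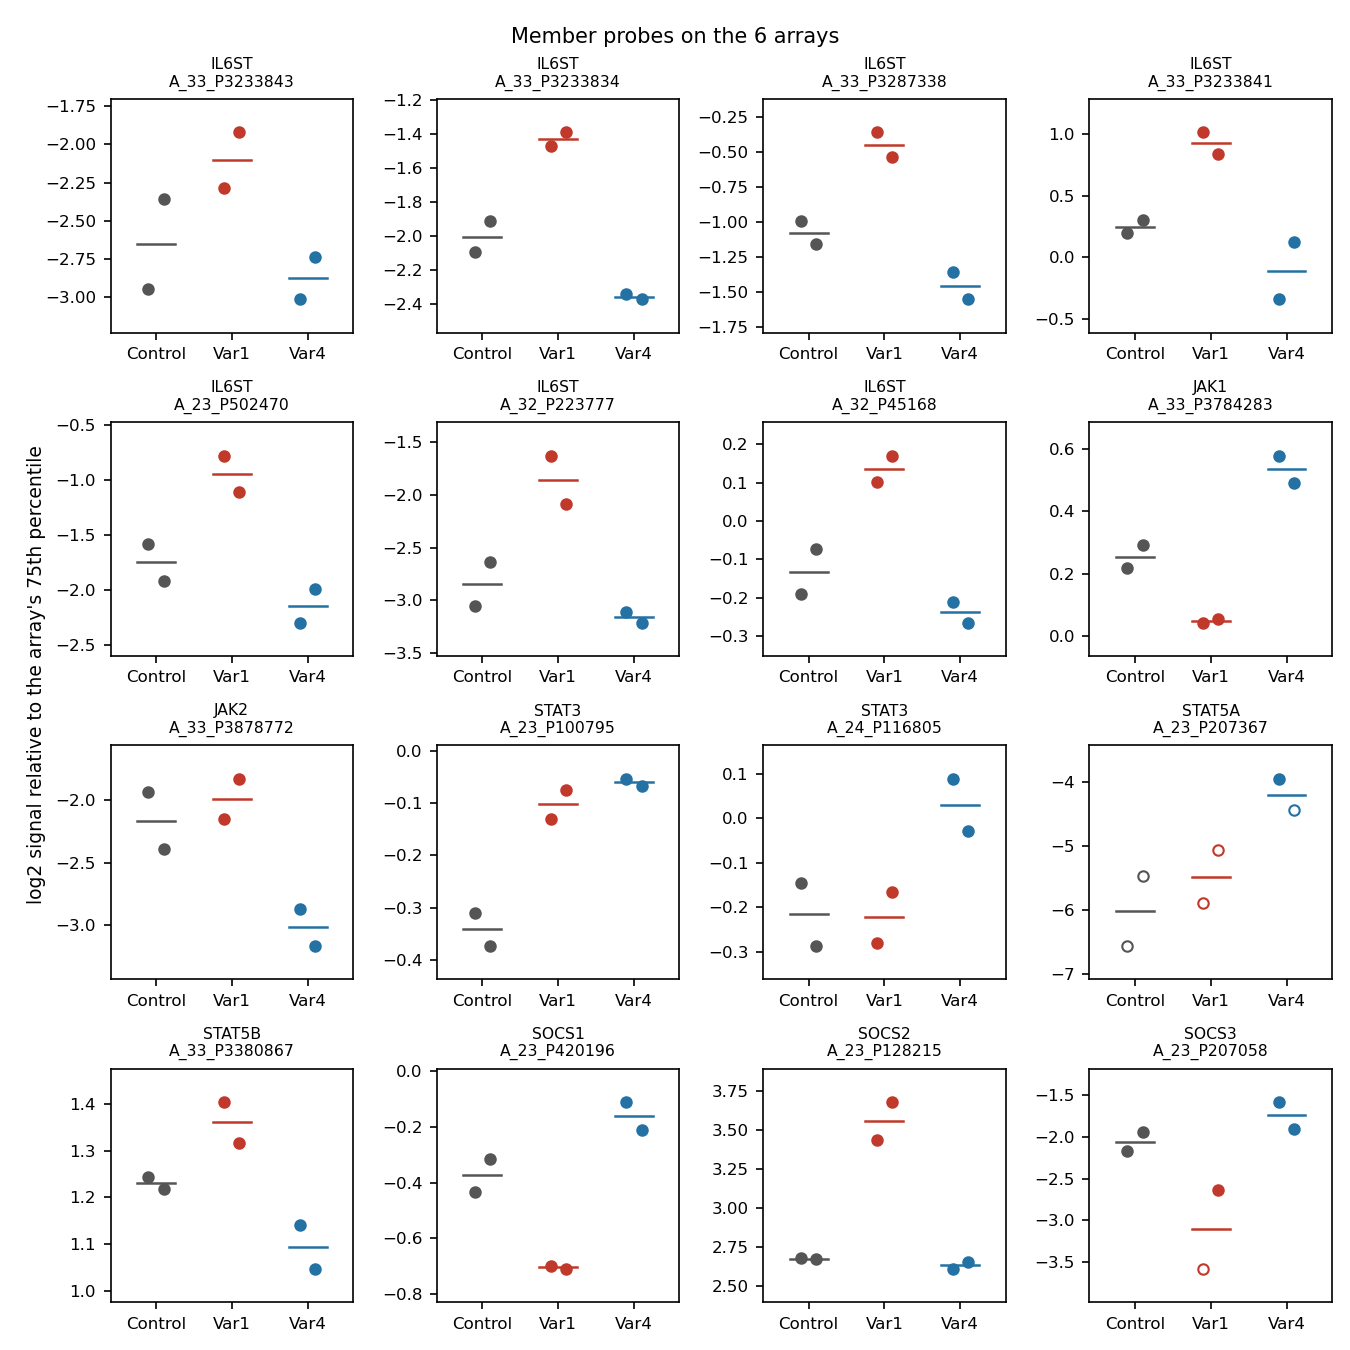
Level of each of the 16 member probes on the 6 arrays (y axis, log2 signal relative to the 75th percentile of the array, with its own range in each panel), for Control, BT474-Var1 and BT474-Var4 cells. Points are arrays A (left) and B (right), bars are group means and open points were not well above background, which applies to 5 of the 6 STAT5A values and 1 SOCS3 value.

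More member probes passed between the 2 variant populations than for either against Control. Between BT474-Var4 and BT474-Var1 cells, 12 of the 15 probes passed, 3 higher in BT474-Var4 (JAK1, SOCS1 and SOCS3) and 9 lower (JAK2, STAT5B, SOCS2 and 6 of IL6ST), and 6 of the 12 reached 2-fold. Over all tested probes the shares were 41.2% in all, 20.4% higher, 20.8% lower and 6.86% with a 2-fold change, and the arrays did not overlap for 74.6%, against 15 of 15 member probes. The median was -0.77 for the member probes and -0.03 for all probes. The calls came from 7 of the 8 tested genes, and those at 2-fold from IL6ST, JAK2 and SOCS3 alone. As 7 of the 15 probes belong to IL6ST, the member counts and median lean on that gene. All 3 comparisons use the same 6 arrays, and those against Control share its arrays.

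IL6ST was the member with the most probes, and they spread along its transcript on chromosome 5 of the hg19 build, on the minus strand. The 4 probes nearest the 5′ end lie in the coding sequence and are shown because the receptor parts they read belong to the signaling steps described above. In A_33_P3287338 the capitals mark the codons for tryptophan, serine, any residue and tryptophan of the conserved motif of cytokine receptors, outside the cell. In A_33_P3233841 they mark a proline, any residue and a proline of box 1, the part of the tail that holds the kinases.
IL6ST A_33_P3233843 (chr5:55265491-55265550): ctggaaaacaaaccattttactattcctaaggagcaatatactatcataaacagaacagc
IL6ST A_33_P3233834 (chr5:55260037-55260096): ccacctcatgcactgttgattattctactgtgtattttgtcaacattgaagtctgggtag
IL6ST A_33_P3287338 (chr5:55256263-55256322): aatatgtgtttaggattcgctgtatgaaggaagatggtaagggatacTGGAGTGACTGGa
IL6ST A_33_P3233841 (chr5:55238513-55238572): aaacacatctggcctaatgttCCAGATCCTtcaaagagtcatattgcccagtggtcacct
The other probes lie farther 3′, A_23_P502470 at chr5:55236728-55236787, A_32_P223777 at chr5:55231134-55231193 and A_32_P45168 at chr5:55230909-55230923, where the file places only 15 of its 60 bases.

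All 7 IL6ST probes were higher in BT474-Var1 cells than in Control on both arrays, and 6 passed the test. The receptor motif probe A_33_P3287338 stood at -0.99 and -1.16 in Control, -0.36 and -0.54 in BT474-Var1, and -1.36 and -1.55 in BT474-Var4 cells. Both BT474-Var1 arrays were above both Control arrays, which were above both BT474-Var4 arrays. The change in BT474-Var1 cells was 0.63 ± 0.11 (log2, SE, n = 2 per group, adjusted p = 0.0182), 1.55-fold. The box 1 probe A_33_P3233841 stood at 0.20 and 0.30 in Control, 1.02 and 0.84 in BT474-Var1, and -0.34 and 0.12 in BT474-Var4 cells. It rose by 0.68 ± 0.17 in BT474-Var1 cells (adjusted p = 0.0429). The change was greatest at A_32_P223777, which stood at -3.05 and -2.64 in Control, -1.63 and -2.09 in BT474-Var1, and -3.11 and -3.21 in BT474-Var4 cells. This amounted to 1.99-fold (0.99 ± 0.21, adjusted p = 0.0281).

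From the 5′ probe to the sixth, the log2 fold change in BT474-Var1 cells ran 0.55, 0.57, 0.63, 0.68, 0.80 and 0.99, and it was 0.27 at the last probe, A_32_P45168. The probe at the 5′ end, A_33_P3233843, was the one that did not pass (adjusted p = 0.162, 95% interval -0.12 to 1.22). The intervals of the first 6 probes overlapped, and the order is a description. The array files assign the first 3 probes to a different RefSeq transcript variant than the other 4, and no difference between the transcripts was tested. In BT474-Var4 cells the differences from Control were between -0.40 and -0.11. Only A_33_P3233834 passed (-0.36 ± 0.08, adjusted p = 0.0414). It passed again with the deposited table and among probes measured on all 6 arrays, and in none of the other alternatives (adjusted p up to 0.168). BT474-Var4 was lower than BT474-Var1 at all 7 probes by 0.37 to 1.30 on the log2 scale, and 6 passed (adjusted p between 0.00295 and 0.0151).

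Leaving out 1 array changed how many IL6ST calls remained. Against Control, A_33_P3233834 lost its BT474-Var1 call only without BT474-Var1 array B (adjusted p = 0.0506), whereas A_23_P502470 and A_32_P45168 lost theirs in all 6 such fits (highest adjusted p 0.136 and 0.158). A_32_P223777 was called only without BT474-Var1 array B (adjusted p = 0.0410). A_33_P3233841 and A_33_P3287338 lost their calls without Control array A, Control array B or BT474-Var1 array A, with adjusted p up to 0.161 and 0.0833, and A_33_P3233841 also without BT474-Var1 array B. Between the populations, A_23_P502470, A_33_P3233834 and A_33_P3287338 were called whichever array was left out. All 7 probes kept their direction in BT474-Var1 cells against Control in each of these fits.

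**Figure D2:**
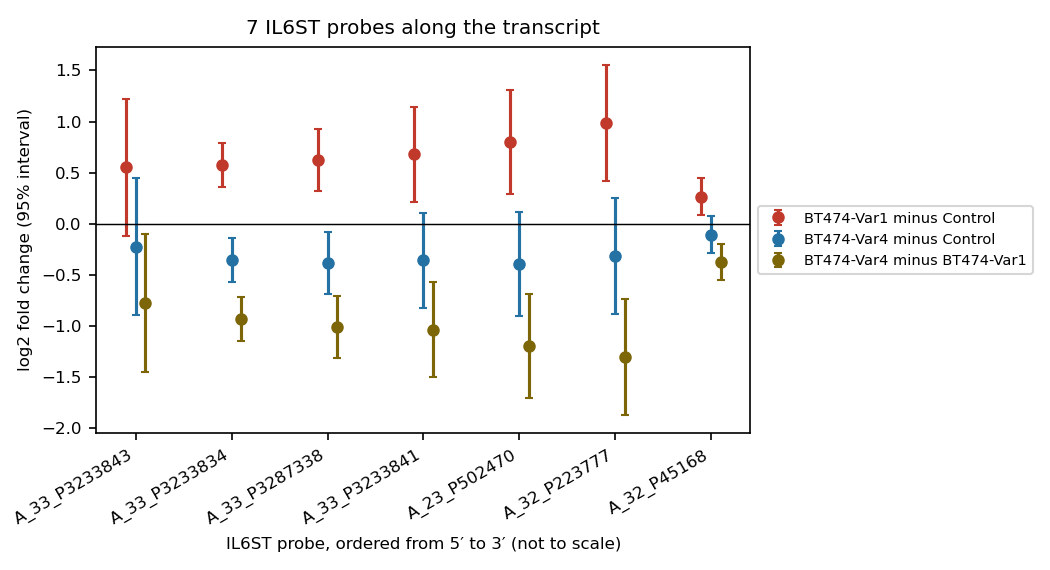
Log2 fold change (y axis) of the 7 IL6ST probes ordered from 5′ to 3′ (x axis, not to scale), with 95% intervals from limma, for BT474-Var1 and BT474-Var4 against Control and for BT474-Var4 against BT474-Var1 cells. The BT474-Var1 values climb from 0.55 to 0.99 over the first 6 probes and are 0.27 at the last, while the BT474-Var4 values stay between -0.40 and -0.11.

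The receptor chains that pair with IL6ST were next considered. LIFR, which joins IL6ST to bind LIF, stood at -2.50 and -2.63 in Control, -1.94 and -2.09 in BT474-Var1, and -2.49 and -2.90 in BT474-Var4 cells. Its difference of 0.55 in BT474-Var1 cells did not pass (adjusted p = 0.0573), but BT474-Var4 was below BT474-Var1 by 0.68 (adjusted p = 0.0290). IL6R, the binding chain for IL-6, differed from Control by -0.01 in BT474-Var1 cells (95% interval -0.63 to 0.60) and by 0.12 in BT474-Var4 cells (-0.50 to 0.74) at probe A_33_P3288844. The second IL6R probe was not tested. OSMR, the oncostatin M chain, passed at neither of its 2 probes in any comparison. PRLR, the prolactin receptor, rose by 0.36 ± 0.07 in BT474-Var4 cells at probe A_24_P671164 (adjusted p = 0.0276), while its other 2 probes, which did not pass, differed by 0.06 and 0.08.

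JAK1, the kinase that IL6ST relies on most, is located on chromosome 1, where its probe covers chr1:65299773-65299832. It stood at 0.22 and 0.29 in Control, 0.04 and 0.05 in BT474-Var1, and 0.58 and 0.49 in BT474-Var4 cells. The groups did not overlap, in the order BT474-Var4, Control, BT474-Var1. JAK1 rose 1.21-fold in BT474-Var4 cells (0.28 ± 0.06, adjusted p = 0.0364), and the call was lost in all 6 fits without an array (adjusted p from 0.0712 to 0.152). The BT474-Var1 value was -0.21 ± 0.06 and did not pass (adjusted p = 0.0593). BT474-Var4 exceeded BT474-Var1 by 0.48 ± 0.06 (adjusted p = 0.00613), a call that held whichever array was left out.

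JAK2, which serves the prolactin, growth hormone and erythropoietin receptors, showed another order. Its probe at chr9:5127355-5127414 stood at -1.94 and -2.39 in Control, -2.15 and -1.83 in BT474-Var1, and -2.87 and -3.17 in BT474-Var4 cells. Control and BT474-Var1 arrays overlapped and both BT474-Var4 arrays were below them. The BT474-Var4 value against Control was -0.85 ± 0.21 and missed the threshold (adjusted p = 0.0515). Against BT474-Var1 cells it was -1.03 ± 0.21 (adjusted p = 0.0220), or 0.491-fold, and the call was lost without any of the BT474-Var4 or BT474-Var1 arrays (highest adjusted p 0.0917). Of the other kinases of the family, TYK2, which works with the interferon receptors, rose in BT474-Var1 cells by 0.67 ± 0.11 (adjusted p = 0.0149), from -1.04 and -1.23 in Control to -0.43 and -0.50, and stood at -1.15 and -0.92 in BT474-Var4 cells. JAK3, the kinase of lymphocyte cytokine receptors, did not pass at its tested probe (0.24 for BT474-Var1, -0.17 for BT474-Var4).

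STAT3, the main transcription factor downstream of IL6ST, was read by 2 probes that did not give the same calls. A_23_P100795 (chr17:40465923-40465982) stood at -0.31 and -0.37 in Control, -0.13 and -0.07 in BT474-Var1, and -0.05 and -0.07 in BT474-Var4 cells. The Control arrays were the lowest, and the populations differed from each other by 0.04 (95% interval -0.10 to 0.19). The rise in BT474-Var1 cells was 1.18-fold (0.24 ± 0.05, adjusted p = 0.0317). That in BT474-Var4 cells was 1.22-fold (0.28 ± 0.05, adjusted p = 0.0290). Both calls were lost whichever array was left out (adjusted p from 0.0548 to 0.137). The other probe lies in coding sequence for the SH2 domain, by which STATs dock and pair, and is shown because its calls were not those of the first, although no difference between the probes was tested.
STAT3 A_24_P116805 (hg19 chr17:40474404-40474463, minus strand): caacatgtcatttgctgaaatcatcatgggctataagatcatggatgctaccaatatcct
It stood at -0.14 and -0.29 in Control, -0.28 and -0.17 in BT474-Var1, and 0.09 and -0.03 in BT474-Var4 cells. The first 2 groups overlapped, with a difference of -0.01 (95% interval -0.23 to 0.22). The BT474-Var4 value of 0.24 ± 0.09 was close to that of the first probe and did not pass (adjusted p = 0.106).

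STAT5B, 1 of a pair of closely related factors, was measured at chr17:40351196-40351255. It stood at 1.24 and 1.22 in Control, 1.40 and 1.32 in BT474-Var1, and 1.14 and 1.05 in BT474-Var4 cells. The groups did not overlap, and neither differed from Control by the test (0.13, adjusted p = 0.183, and -0.14, adjusted p = 0.186). BT474-Var4 was below BT474-Var1 by 0.27 ± 0.06 (adjusted p = 0.0311), a call that was lost whichever array was left out. STAT5A, its relative, was well above background only on BT474-Var4 array A and was not tested. Its signals were -6.56 and -5.46 in Control, -5.89 and -5.06 in BT474-Var1, and -3.95 and -4.44 in BT474-Var4 cells, at chr17:40463483-40463542. These values were at or near background, and no fold change is given. Of the other STATs, STAT2, a part of the interferon-induced complex, rose in BT474-Var4 cells by 0.28 ± 0.06 (adjusted p = 0.0382). STAT6, which answers IL-4 and IL-13, did not pass (0.22 and 0.27), and STAT4 was not tested.

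The 3 SOCS inhibitors did not move together. SOCS2, which limits growth hormone and prolactin signals, stood at 2.68 and 2.67 in Control, 3.44 and 3.68 in BT474-Var1, and 2.61 and 2.65 in BT474-Var4 cells, at chr12:93969799-93969858. The BT474-Var1 arrays were far above the other 4, which lay between 2.61 and 2.68. The rise in BT474-Var1 cells was 1.85-fold (0.89 ± 0.09, adjusted p = 0.00606), and it was the only member call against Control that held in all 15 alternative analyses. In BT474-Var4 cells the difference was -0.04 (95% interval -0.29 to 0.21).

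SOCS1, which inhibits the kinases directly and is induced by interferons, stood at -0.43 and -0.31 in Control, -0.70 and -0.71 in BT474-Var1, and -0.11 and -0.21 in BT474-Var4 cells, at chr16:11348384-11348443. The groups did not overlap, in the order BT474-Var4, Control, BT474-Var1, as for JAK1. SOCS1 fell in BT474-Var1 cells to 0.795-fold (-0.33 ± 0.07, adjusted p = 0.0260). This call was lost without either Control array or either BT474-Var1 array (adjusted p up to 0.109). The BT474-Var4 value was 0.21 ± 0.07 (adjusted p = 0.0920), and the populations differed by 0.54 ± 0.07 (adjusted p = 0.00662), which held whichever array was left out.

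SOCS3, which binds IL6ST itself and is the feedback inhibitor of IL-6 signals, stood at -2.17 and -1.94 in Control, -3.59 and -2.64 in BT474-Var1, and -1.58 and -1.90 in BT474-Var4 cells, at chr17:76353127-76353186. Both BT474-Var1 arrays were below the other 4, and array A was not well above background. The BT474-Var1 value against Control was -1.05 ± 0.35 and did not pass (adjusted p = 0.0785). It was -1.53 without BT474-Var1 array B, which left the array that was not well above background, and -0.58 without array A. With normexp it was -0.19 (adjusted p = 0.0426). BT474-Var4 exceeded BT474-Var1 by 1.37 ± 0.35, or 2.59-fold (adjusted p = 0.0360), which was 0.26 with normexp (adjusted p = 0.00836) and 0.90 without BT474-Var1 array A. With 1 array left out, it was called only without BT474-Var1 array B.

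As SOCS genes are targets of STATs, the promoter windows of RefSeq (GRCh38.p14, 300 bases around each start) were searched for the STAT motif TTCNNNGAA, which reads the same on both strands. Of the 9 members, 8 had 16 windows among these, and none of the 16 held the motif, against 7.66% of all 35116 windows. SOCS2 had no window and was not searched. CISH, a relative of the SOCS genes, held it 4 times. With 1 base less between the ends, TTCNNGAA was found in 3 of the 16 windows, those of JAK1, STAT3 and SOCS3 (7.74% of all windows). With 1 more, TTCNNNNGAA was found in 1, of STAT5A (6.44%). The SOCS3 window is shown, as that of the feedback inhibitor, with the match in capitals (minus strand).
SOCS3 (chr17:78360876-78361175): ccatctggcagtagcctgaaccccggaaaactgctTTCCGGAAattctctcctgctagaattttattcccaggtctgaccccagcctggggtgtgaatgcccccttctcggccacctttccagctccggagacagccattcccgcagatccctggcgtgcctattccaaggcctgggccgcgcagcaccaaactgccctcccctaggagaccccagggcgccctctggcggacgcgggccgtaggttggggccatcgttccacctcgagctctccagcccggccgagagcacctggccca

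**Figure D3:**
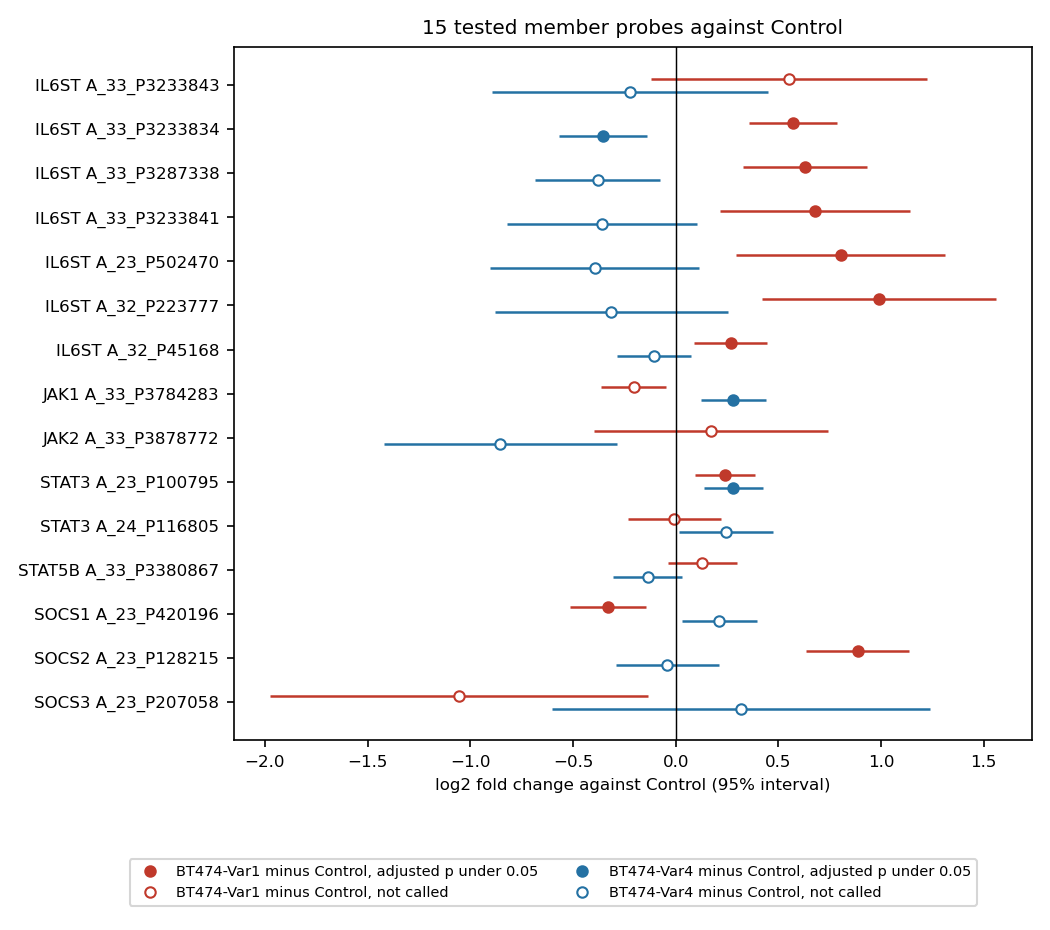
Log2 fold change against Control (x axis) with 95% intervals from limma for the 15 tested member probes (y axis), in BT474-Var1 and BT474-Var4 cells. Filled points passed an adjusted p under 0.05, which 9 did for BT474-Var1 and 3 for BT474-Var4, and no estimate that passed reaches 1 on the log2 scale.

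Other inhibitors of the pathway were then examined. Of the 5 other CIS and SOCS genes, SOCS6 fell by 0.24 on the log2 scale in BT474-Var1 cells (adjusted p = 0.0400). CISH, SOCS4, SOCS5 and SOCS7 were between -0.21 and -0.10 and did not pass. None of the 5 passed in BT474-Var4 cells by limma, where 2 had an unadjusted p under 0.05, for which no share over all probes is given. The list shares that passed were 20% and 0%, against 34.4% and 24.2% of all tested probes. In this list and those below, each gene counts by its brightest tested probe, whereas the shares over all probes count every tested probe. Among 12 tested genes of other negative regulators (phosphatases, PIAS proteins and adaptors), 5 fell and none rose in BT474-Var1 cells, with a median of -0.12. The 5 are 41.7% of the list, against 20.3% of all tested probes lower there and 34.4% changed in either direction. These were the phosphatase genes PTPN1 (-0.25), PTPN2 (-0.57) and PTPN11 (-0.39), of which PTPN11 also carries signals onward, and the adaptor genes CBL (-0.45) and SH2B3. SH2B3, an adaptor that restrains JAK2, stood at -3.39 and -3.73 in Control and was not well above background on either BT474-Var1 array, at least 1.38-fold lower (adjusted p = 0.0283). It was tested only because both Control arrays measured it. In BT474-Var4 cells 1 of the 12 passed, USP18, an inhibitor of interferon receptor signals, which rose by 0.45. This was 8.33% of the list, against 24.2% of all tested probes.

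Among 23 tested cytokine receptor subunits, 2 rose and 6 fell in BT474-Var1 cells (median -0.11), and 3 rose and 3 fell in BT474-Var4 cells (median -0.09). These shares, 34.8% and 26.1%, were near those over all tested probes, 34.4% and 24.2%. IL27RA, the chain that pairs with IL6ST for IL-27, fell to 0.437-fold in BT474-Var1 cells, from -1.83 and -1.72 in Control to -2.98 and -2.95 (-1.19 ± 0.16, adjusted p = 0.00864). IL11RA, which pairs with IL6ST for IL-11, rose in BT474-Var1 cells (0.69) and fell in BT474-Var4 cells (-0.50), as did EPOR, the erythropoietin receptor (0.82 and -0.79). These were the 2 that rose in BT474-Var1 cells, and they were named after their values were seen. Of the 6 that fell there, only IL27RA is named, for its 2-fold change, and another fell by as much as 0.92.

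Among 14 tested ligand genes, 2 rose in BT474-Var1 cells, IL15 (0.61) and IFNL1, and 4 rose and 1 fell in BT474-Var4 cells. These were 14.3% and 35.7% of the list, against 34.4% and 24.2% of all tested probes. IFNL1 passed narrowly in BT474-Var1 cells (adjusted p = 0.0497). It was not well above background on either Control array or on BT474-Var1 array A, so no fold is given for BT474-Var1 cells. IL6, the ligand that gives IL6ST its name, was not well above background on either Control array (-4.00 and -4.36) and on 1 of the BT474-Var1 arrays. It stood at -1.30 and -1.35 in BT474-Var4 cells, above Control by 2.85 (log2, 95% interval 1.86 to 3.84, adjusted p = 0.0130). As the Control signals were not well above background, this difference is not exact. IL6 was tested only because both BT474-Var4 arrays measured it, and as 1 of the BT474-Var1 arrays did not, no fold against BT474-Var1 cells is given. IFNL1, an interferon lambda, exceeded Control by at least 3.13-fold in BT474-Var4 cells (adjusted p = 0.00991). Like IL6, it was tested only because both BT474-Var4 arrays measured it. IL6 and IFNL1, 2 of the 4 ligands that rose there, thus entered the test only through the group where they were high. IL19, of the IL-10 family, was at least 2.35-fold lower there (adjusted p = 0.0345). LIF and 15 more ligands were not well above background on both arrays of any group and were not tested.

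Genes known as STAT targets changed in both directions. Of 19 tested STAT3 targets, 9 rose and 4 fell in BT474-Var1 cells (median 0.23), and 4 rose and 4 fell in BT474-Var4 cells (median 0.07). The genes that passed were 68.4% and 42.1% of this list, against 34.4% and 24.2% of all tested probes. These sets are unlike, as the list holds the brightest tested probe of each gene and the other every tested probe. VEGFA, the angiogenic factor, rose 3.77-fold in BT474-Var1 cells, from 2.10 and 2.03 to 4.02 and 3.93, and was 2.06 and 2.08 in BT474-Var4 cells. FOS, an immediate early gene, rose 2.94-fold in the former and 2.30-fold in the latter. ICAM1, an adhesion molecule, was not well above background in Control and exceeded it by at least 2.63-fold in BT474-Var1 and by at least 2.95-fold in BT474-Var4 cells. It was tested only because the arrays of the variant populations measured it. SERPINA3, an acute phase gene, rose 2.12-fold in BT474-Var4 cells and 1.42-fold in BT474-Var1 cells. Of 10 tested STAT5 targets, 3 rose and 2 fell in BT474-Var1 cells (median 0.31), and 2 rose and 2 fell in BT474-Var4 cells (median 0.06). Here 50% and 40% of the list passed, against the same 34.4% and 24.2% of all tested probes. ID1, an inhibitor of differentiation, rose 2.82-fold and the kinase gene PIM2 fell to 0.474-fold in BT474-Var4 cells.

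Over all 82 tested genes of the lists, 40.2% passed in BT474-Var1 cells, 16 higher and 17 lower, with a median of -0.02. In BT474-Var4 cells 30.5% passed, 15 higher and 10 lower, with a median of 0.04. The shares over all tested probes, which are not limited to the brightest probe of a gene, were 34.4% and 24.2%. In BT474-Var1 cells the count of 33 became 15 to 21 without Control array A, Control array B, BT474-Var1 array A or BT474-Var1 array B. In BT474-Var4 cells the count of 25 became 9 to 16 without either Control or either BT474-Var4 array.

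**Figure D4:**
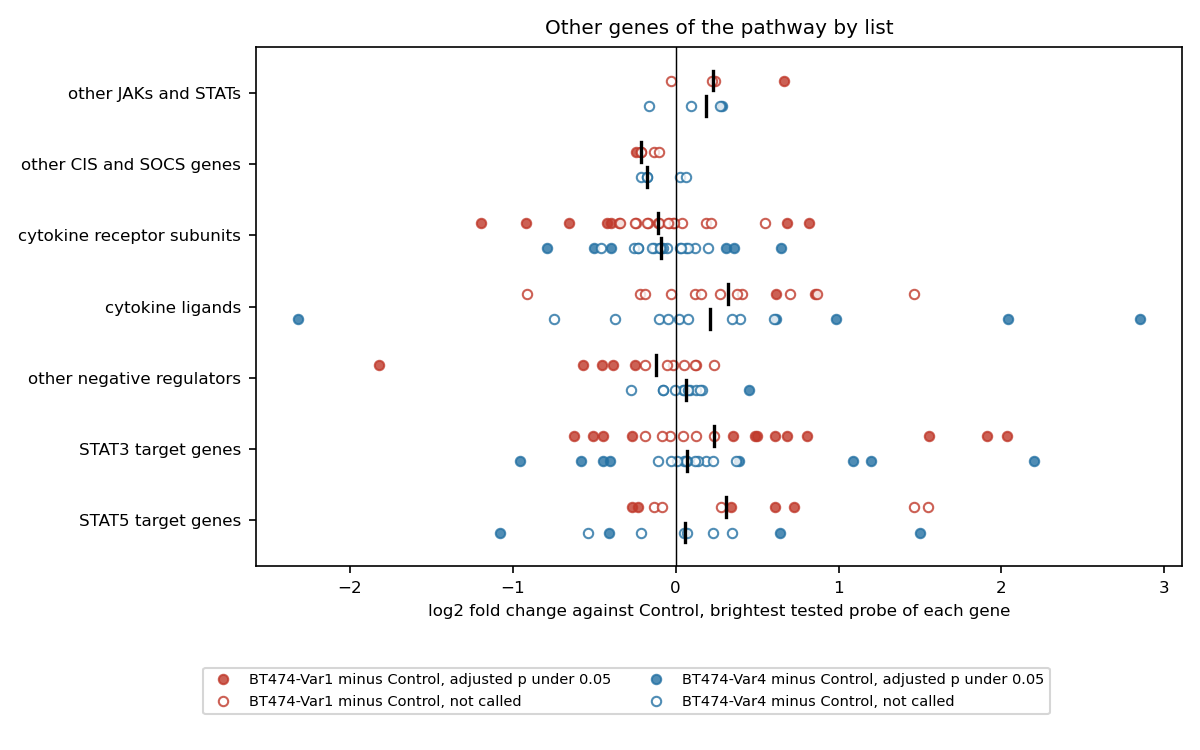
Log2 fold change against Control (x axis) of the brightest tested probe of each gene in 7 lists (y axis), with BT474-Var1 above BT474-Var4 in each list. Filled points passed an adjusted p under 0.05 and black bars are list medians. The median of the STAT3 targets is 0.23 for BT474-Var1 and 0.07 in the BT474-Var4 row, and that of the other CIS and SOCS genes is -0.21 and -0.18.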

How the data were processed

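The authors quantified the arrays with Feature Extraction 11.5.1.1 and shifted each array to its 75th percentile in GeneSpring. The deposited scanner files hold background-subtracted spot intensities, and a deposited table holds the shifted log2 values, whose median absolute difference from those used here was at most 0.00716 on any array. The flags well above background and outlier are other columns that the authors deposited per spot. The methods and the file headers name different array designs. The headers' design and hg19 positions were used.

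Here log2 intensity less the array's 75th percentile over 58201 non-control probes was used, with outlier spots left out. A probe was kept if some group had both arrays well above background, which left 31858 probes (54.74%). These entered limma 3.58.1 in R 4.3.3, with a mean per group over 6 arrays. P-values were adjusted by Benjamini-Hochberg. The test was tried on simulated data. A bound ("at least") sets a dim value no lower than the dimmest probe well above background on its array. For list genes the brightest tested probe was used. All probes of members, related JAK, STAT, CIS and SOCS genes, IL6R, LIFR, OSMR and PRLR were to be named, with up to 3 genes per direction of each other list that passed at 2-fold or more, and the genes most like a member called at 2-fold against Control, of which there was none. IL11RA, EPOR, IL15, USP18 and the phosphatase and CBL genes were named after their values were seen. Members and lists were chosen with earlier results of these data known, and 1 gene and 1 list are not reported here. Alternatives were normexp, quantile, no filter on dim probes, a filter over all 6 arrays, the deposited table, a replicate block, trend and robust eBayes, a fit of the compared groups alone, one-way analysis of variance as in the methods, and each array left out.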

Additional observations from a re-analysis of the deposited data

Results flagged for a closer look

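With 2 arrays per group, no array could be tested as standing apart. For 34 of the probes named in the text, the change in BT474-Var4 cells differed from that in BT474-Var1 cells by the test of the difference (BT474-Var4 minus BT474-Var1, log2, limma, adjusted p under 0.05). Over all tested probes, 41.2% passed this test. The named probes were partly chosen by their changes, so their count is not read against that share. Among the members, the difference was 0.48 for JAK1, -1.03 for JAK2, -0.27 for STAT5B, 0.54 for SOCS1, -0.93 for SOCS2 and 1.37 for SOCS3. Along IL6ST it was -0.93 at A_33_P3233834, -1.01 at A_33_P3287338, -1.04 at A_33_P3233841, -1.20 at A_23_P502470, -1.30 at A_32_P223777 and -0.37 at A_32_P45168. Among related signaling genes it was -0.57 for TYK2, 0.31 for STAT2, 0.28 for SOCS5, -0.68 for LIFR, 0.32 for PRLR, 0.73 for IL27RA and 1.97 for SH2B3. SH2B3 was not well above background on the BT474-Var1 arrays or on BT474-Var4 array B, so that its difference is not exact. Among receptors and regulators named after their values were seen, it was -1.19 for IL11RA, -1.61 for EPOR, 0.30 for PTPN1, 0.69 for PTPN2, 0.46 for PTPN11, 0.37 for CBL and 0.64 for USP18. Among ligands it was 0.37 for IL15, 2.73 for IL6 and 1.18 for IFNL1, but IL6 and IFNL1 were each dim on 1 of the BT474-Var1 arrays, so that these differences are not exact. Among STAT targets it was -0.35 for FOS, -1.90 for VEGFA, 0.59 for SERPINA3, -1.36 for PIM2 and 0.77 for ID1.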

How the results depend on the processing

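Of 24 member calls in the 3 comparisons, 7 held in every alternative: SOCS2 in BT474-Var1 cells against Control, and JAK1, SOCS1, SOCS2 and 3 IL6ST probes between the populations. No call changed direction. With normexp, which adds an offset of 50 to each signal, changes were smaller for most called probes, as for IL6ST A_32_P223777 in BT474-Var1 cells (0.30) and JAK2 between the populations (-0.29). In BT474-Var1 cells, 1 of the 9 member probes passed with no filter on dim probes, 5 with only the 2 groups compared and 3 by one-way analysis of variance, and 2 to 5 with 1 array left out. In BT474-Var4 cells, the 3 became 0 with no filter, 0 with only the 2 groups compared, 1 by analysis of variance and 5 with trend and robust eBayes, and none passed with any array left out. Between the populations, the 12 became 7 with no filter, and 7 to 11 with 1 array left out. At the methods' 2-fold and unadjusted threshold, analysis of variance called 0, 0 and 6 member probes.

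Whether the letters A and B pair the arrays is not stated. Deviations of same-letter arrays correlated at -0.02 to 0.05, which cannot show whether those arrays were handled together. With the letter as a replicate block, 4 member probes passed for BT474-Var1, 1 for BT474-Var4 and 12 between the populations.

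Of the list genes, 33 in BT474-Var1, 25 in BT474-Var4 cells and 43 between the populations became 10, 6 and 12 with no filter, and the 25 became 15 by analysis of variance. With 1 array left out they ranged from 15 to 27, 9 to 19 and 21 to 33.

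Without a call, JAK2 in BT474-Var1 cells ranged from -0.054 (without Control array B) to 0.40 with 1 array left out. STAT3 A_24_P116805 ranged there from -0.078 to 0.063, turning positive without Control array A (0.063) or BT474-Var1 array A, and was 0.026 with normexp. IL6ST A_33_P3233843 in BT474-Var4 cells ranged from -0.52 to 0.073 (without Control array B). The cause was not tested. Dim probes (SOCS3, STAT5A) are limited by signal over background.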
